A study of Mus musculus with 6 samples.

Results

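Cell cycle transcripts were followed through brain myeloid suspensions of mice with and without brain metastases. The members are 35 named genes of the 19361 genes in the tables, of which 10 act in S phase, 24 act in G2 or mitosis (G2/M) and 1, Stmn1, was given no phase. They were read in every barcode that had at least 400 detected genes and less than 10% mitochondrial UMIs, where a UMI is 1 tagged transcript molecule and a barcode stands for 1 captured cell. In all, 1085 of 2083 such barcodes held 3 or more UMIs over the 35 genes. The suspensions came from perfused brains that were digested, spun on Percoll and enriched for Cd11b, a surface protein of myeloid cells, and they were run on Drop-seq, which counts the 3′ ends of transcripts. All mice were females of 2 to 3 months on the C57BL/6 background.

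The naive group, labelled wild type, had no metastases, and it comprised 1 brain sequenced on a HiSeq 2500 (naive 1) and 1 brain sequenced on a NextSeq 500 (naive 2). Mice of the metastasis group were of the same strain with no other allele named and carried brain metastases seeded 2 to 3 weeks earlier, when E0771, a murine breast carcinoma line, was injected into the heart. Their libraries likewise came from 1 brain on each sequencer (metastasis 1 on the HiSeq 2500, metastasis 2 on the NextSeq 500). Both Cx3cr1 groups also carried E0771 metastases of that age, were pooled from 2 brains each and were sequenced on the NextSeq 500: Cx3cr1+/- mice (Cx3cr1-het) lack 1 copy of this fractalkine receptor gene, and Cx3cr1-/- mice (Cx3cr1-null) lack both. With a single library per genotype, no test between them could be made. Microglial Cx3cr1 was far lower in Cx3cr1-null than in the other libraries, whereas Cx3cr1-het lay within their range: it stood at 4241 CPM in naive 1, 2147 in naive 2, 1032 in metastasis 1, 4338 in metastasis 2, 1254 in Cx3cr1-het and 60.4 in Cx3cr1-null, where CPM are UMIs scaled to 1000000 in all. For all 4 naive and metastasis libraries, the group in the name of a table was opposite to the group in its sample label, and labels were followed. Rhox5, a reproductive homeobox gene, was used here as a marker of the injected line. It had 1337 UMIs in the library labelled metastasis 1 and 0 in naive 1, but 0 in metastasis 2 and 4 in naive 2. Cx3cr1-het had 12 and Cx3cr1-null 3. Esx1, another marker of the line, had 6 UMIs in naive 2 and 0 in metastasis 2. So few UMIs did not settle the labels on the NextSeq 500. By the table names, each contrast of metastasis 2 with naive 2 would change sign.

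Dividing cells express these genes in waves. At the start of S phase the Mcm2 to Mcm7 helicase, the sliding clamp Pcna and the enzymes that supply deoxynucleotides (Rrm1, Rrm2, Tyms) are induced under E2F factors. Later, cyclins A and B with Cdk1, chromosome organizers such as Top2a and Smc4, kinetochore and spindle proteins, and the regulators of the anaphase-promoting complex (Cdc20, Ube2c) rise toward mitosis, largely through promoter elements called CHR and CCAAT boxes. Most microglia of the healthy adult brain are out of the cycle at any moment, whereas carcinoma cells cycle continuously. A few of the genes are also expressed outside the cycle, among them Hmgb2, a chromatin protein, and Pcna, which serves in DNA repair.

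The promoters of the members show this division in letters. RefSeq windows (GRCm38.p6, 250 bases before to 50 bases after the start) matched 29 of the 35 genes; Mcm4, Ccna2, Aurkb, Tpx2, Smc4 and Stmn1 had no match. The CHR letters TTTGAA or TTTAAA, searched on both strands, stood in 17 of 20 G2/M windows (85.0%), in 3 of 9 S windows (33.3%) and in 30.6% of all 27025 windows. E2F letters, searched on both strands as the words TTCCCGC and TTGGCGC as well as the words TTCGCGC and then TTGCCGC, which can overlap one another, stood in 6 of 9 S windows (66.7%), in 3 of 20 G2/M windows (15%) and in 10.9% of all. The CCAAT letters, read as CCAAT or ATTGG, were common to both phases, with 17 of 20 G2/M windows, 8 of 9 S windows and 41.1% of all. These matches are descriptions of letters, not of bound sites. The stretches below are 120 bases from the windows of the 4 members of each phase with most UMIs and a window, printed because several of these genes recur in the results that follow; Smc4, the member with most UMIs, has no window. In the G2/M set, capitals mark CHR and CCAAT letters.
Hmgb2 (+ strand, chr8:57511723-57511842): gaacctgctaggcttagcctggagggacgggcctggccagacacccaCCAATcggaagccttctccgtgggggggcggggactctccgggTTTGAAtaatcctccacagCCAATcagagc
Top2a (- strand, chr11:99024259-99024378): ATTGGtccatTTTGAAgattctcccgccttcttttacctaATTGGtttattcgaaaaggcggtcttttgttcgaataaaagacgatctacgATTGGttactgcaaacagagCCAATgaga
Cenpf (- strand, chr1:189688121-189688240): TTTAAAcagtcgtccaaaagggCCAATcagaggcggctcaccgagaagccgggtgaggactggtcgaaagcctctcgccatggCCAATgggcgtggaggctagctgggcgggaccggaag
Birc5 (+ strand, chr11:117849017-117849136): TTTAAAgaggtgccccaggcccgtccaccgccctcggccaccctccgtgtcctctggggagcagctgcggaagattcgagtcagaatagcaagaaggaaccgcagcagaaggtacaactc
In the S set, capitals mark E2F and CCAAT letters; the window of Pcna held no E2F match, and those of Mcm3 and Mcm6 held 3 and 5.
Pcna (- strand, chr2:132253181-132253300): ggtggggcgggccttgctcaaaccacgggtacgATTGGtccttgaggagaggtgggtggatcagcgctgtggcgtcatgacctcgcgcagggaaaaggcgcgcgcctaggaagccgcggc
Mcm3 (- strand, chr1:20820287-20820406): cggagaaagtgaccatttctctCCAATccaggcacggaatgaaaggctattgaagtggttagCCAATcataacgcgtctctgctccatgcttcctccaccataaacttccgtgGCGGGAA
Rrm1 (+ strand, chr7:102441575-102441694): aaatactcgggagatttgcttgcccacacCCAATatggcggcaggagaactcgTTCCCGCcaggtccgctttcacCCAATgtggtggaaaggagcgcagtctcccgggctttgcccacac
Mcm6 (- strand, chr1:128359706-128359825): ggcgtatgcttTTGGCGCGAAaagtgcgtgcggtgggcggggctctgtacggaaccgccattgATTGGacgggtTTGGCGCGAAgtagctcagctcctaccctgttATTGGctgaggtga

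The tables hold 1000 barcodes per library and 491621 to 2667099 UMIs. The filters kept 420 barcodes of naive 1 and 181 of naive 2, 990 of metastasis 1 and 81 of metastasis 2, 251 of Cx3cr1-het and 160 of Cx3cr1-null, with a median of 1060 (metastasis 2) to 3902 (Cx3cr1-het) UMIs per barcode. No pair of libraries shared more than 1 barcode sequence. Within libraries, 38 pairs of kept barcodes differed by a single base or deletion and may be split cells. Metastasis 1 stood apart from all others: it lost 10 barcodes to the filters where the other libraries lost 580 to 919, its barcodes had a median of 15.5 microglial marker UMIs per 10000 against 120 to 187 elsewhere, and its summed carcinoma markers reached 1052 CPM against 0 to 49.96. Several results that rest on it are also given without it. All intervals below are exact 95% intervals, binomial for shares and Poisson for levels, and cover counting error only.

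Barcodes with cell cycle transcripts were most frequent in metastasis 1. Of its kept barcodes 77.8% (75.1 to 80.3) held 3 or more UMIs over the list, against 20% (16.3 to 24.2) in naive 1, 32.6% (25.8 to 39.95) in naive 2, 25.9% (16.8 to 36.9) in metastasis 2, 40.2% (34.1 to 46.6) in Cx3cr1-het and 31.2% (24.2 to 39.0) in Cx3cr1-null. Only the interval of metastasis 1 lay clear of all 5 others. At the limit itself, 126 barcodes of metastasis 1 and 9 to 32 of each other library held exactly 3 list UMIs, and 113 and 6 to 44 held exactly 2. The share moved with depth: barcodes with 3 or more list UMIs had a median of 2972 UMIs in naive 1 and 5746 in Cx3cr1-het, and the remaining barcodes had 1100 and 2886.

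After every barcode was thinned to 800 UMIs, the shares were 4.44% in naive 1 (of 338 barcodes; 82 shallower ones left out), 36.6% in metastasis 1 (989; 1), 4.07% in naive 2 (172; 9), 3.51% in metastasis 2 (57; 24), 4.12% in Cx3cr1-het (243; 8) and 3.90% in Cx3cr1-null (154; 6). The spread among the 5 libraries other than metastasis 1 at full depth was thus not seen at equal depth, where their intervals overlapped throughout (the lowest bound was 0.428% and the highest 12.1%, both in metastasis 2). Metastasis 1 stayed above them at 33.6 to 39.7%.

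**Figure D1:**
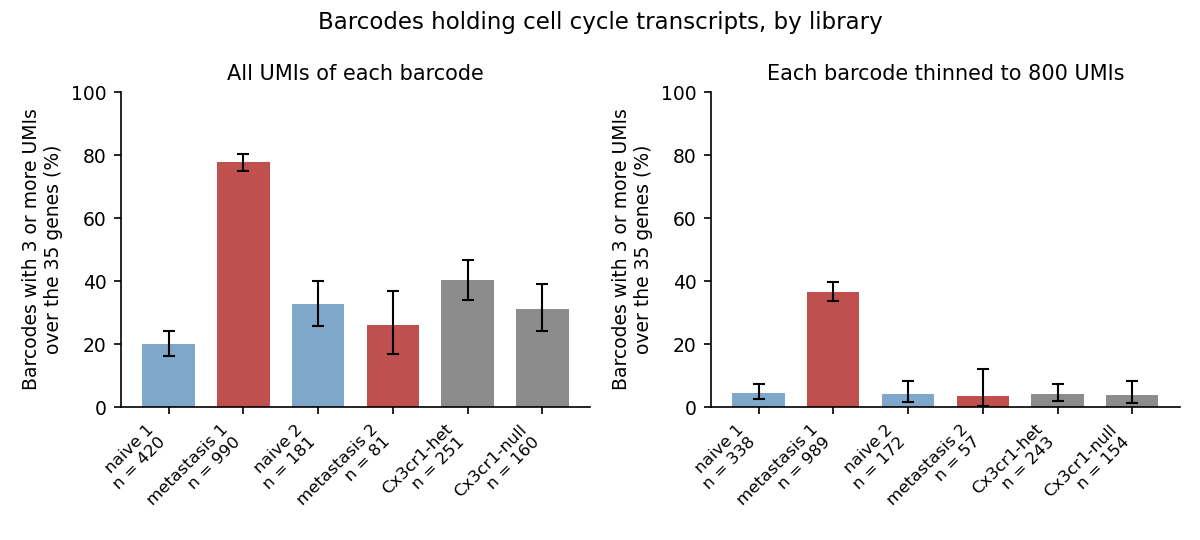
Share of kept barcodes with 3 or more UMIs over the 35 genes (percent, vertical axis) in each library (horizontal axis), with all UMIs on the left and after thinning to 800 UMIs per barcode on the right; error bars are exact 95% binomial intervals and n is the number of barcodes. Metastasis 1 is at 77.8% and 36.6%, and the other 5 libraries lie between 3.51% and 4.44% after thinning.

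Lineage was assigned to each barcode from its marker UMIs per 10000: microglia (11 markers such as P2ry12 and Tmem119), other myeloid cells (23 markers of macrophages, monocytes, granulocytes and dendritic cells), and, below 75 pan-myeloid marker UMIs per 10000, Rhox5-positive where at least 1 Rhox5 UMI was present and non-myeloid otherwise. At or above that limit, barcodes were also called non-myeloid by lymphoid, endothelial or mural and fibroblast markers. The highest of these sums had to reach 40 and to exceed both the microglial and the other-myeloid sum. Remaining barcodes above the pan-myeloid limit and under 40 in both the microglial and the other-myeloid sum were left unresolved. Of 1057 microglial barcodes 330 held 3 or more list UMIs, as did 352 of 506 other myeloid, 83 of 90 Rhox5-positive, 52 of 83 non-myeloid and 268 of 347 unresolved ones. These classes are ranges of a marker sum: 366 barcodes lay within 25% of the microglia or other-myeloid limit, 340 of them in metastasis 1.

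In microglia the summed level of the 35 genes was 725 CPM in naive 1 (666 to 787, 392 barcodes), 667 in naive 2 (594 to 746, 128), 716 in metastasis 2 (595 to 854, 75), 665 in Cx3cr1-het (613 to 719, 200), 1220 in Cx3cr1-null (1124 to 1321, 131) and 2355 in metastasis 1 (2182 to 2539, 131). The first 4 libraries overlapped within counting error, and Cx3cr1-null and metastasis 1 lay above them. In other myeloid barcodes the level was 861 CPM in naive 1 (22 barcodes), 1561 in naive 2 (31), 900 in Cx3cr1-het (34), 1147 in Cx3cr1-null (22) and 2161 in metastasis 1 (394). A few barcodes set several of these values. Without the barcode holding most list UMIs in each class, microglia of Cx3cr1-null were at 770 CPM, and other myeloid barcodes were at 676 in naive 2 and 532 in Cx3cr1-null, while microglia of metastasis 1 stayed at 2281. Non-myeloid barcodes, with a median of 126 endothelial marker UMIs per 10000 in naive 2 and 94 in Cx3cr1-het, gave a comparison level of 568 CPM in naive 2 (443 to 716, 18 barcodes) and 615 in Cx3cr1-het (418 to 873, 12), near the microglial level of the same libraries.

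**Figure D2:**
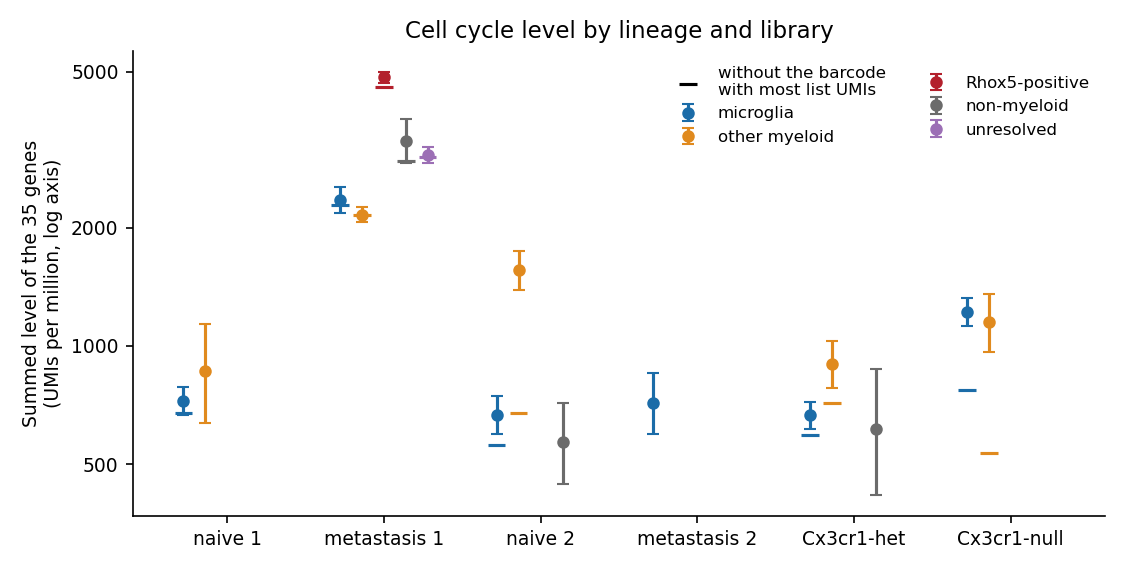
Summed level of the 35 genes (CPM, log axis) in each library (horizontal axis), coloured by lineage, for classes of at least 10 barcodes; points carry exact 95% Poisson intervals, and a dash gives the level without the barcode that holds most list UMIs, where a class has a barcode with 8 or more members. All 5 classes of metastasis 1 lie above 2000 and Rhox5-positive barcodes reach 4833; the dash falls far from its point in Cx3cr1-null and in other myeloid barcodes of naive 2.

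Microglia, other myeloid and non-myeloid barcodes of metastasis 1 carried more cell cycle transcript than those of any other library with at least 10 barcodes in the class. The non-myeloid class held unlike cells, so its levels do not compare 1 cell type. Its endothelial markers stood at 12380 CPM in naive 2, 10880 in Cx3cr1-het and 271 in metastasis 1. Its lymphoid markers stood at 400, 476 and 3177 CPM in the same order. The Rhox5-positive and unresolved classes had at most 2 and 4 barcodes elsewhere and no such comparison. Within metastasis 1, Rhox5-positive barcodes were highest at 4833 CPM (4680 to 4990, 88 barcodes), followed by non-myeloid barcodes at 3333 (2920 to 3789, 41) and unresolved ones at 3059 (2918 to 3206, 336). The summed markers of the injected line were also highest in Rhox5-positive barcodes, and they were lowest, at 413 CPM, in non-myeloid ones. The class rule fixes part of this order, since below the pan-myeloid limit it puts only barcodes without a Rhox5 UMI in the non-myeloid class. Rhox5 gave 71.2 CPM of the non-myeloid sum. Of the 11 carcinoma markers 6 were detected in microglia of metastasis 1 and 7 in Rhox5-positive barcodes, at 471 and 2151 CPM, against 0 to 50.5 CPM in microglia of the other libraries. Krt7, Krt19 and Cldn7 were at 0 in the whole of metastasis 1, and Krt18 and Cldn4 were at 0 in its microglia. Rhox5, Esx1, Wfdc2, Krt8 and Sdc1 stood higher in microglia of metastasis 1 than in those of naive 1. Epcam went the other way, at 24.6 CPM in naive 1 against 3.46 in metastasis 1, and so did Krt18, at 10.4 against 0. Krt7, Cldn4 and Cldn7 were also lower in metastasis 1, by a few UMIs. Rhox5 itself stood at 236 CPM in microglia of metastasis 1, 260 in other myeloid, 367 in unresolved and 1041 in Rhox5-positive barcodes. Rhox5 is 1 of the 11 markers, so the 2151 CPM of Rhox5-positive barcodes includes it. Its share of the cell cycle level was not constant: there were 4.64 list UMIs per Rhox5 UMI in Rhox5-positive barcodes (4.30 to 5.02), which the class rule chose for Rhox5, 10 in microglia (7.79 to 13.03) and 8.33 in other myeloid barcodes (7.29 to 9.55). The part of RNA from other cells in the microglial level of metastasis 1 was not tested. The injected line and the sequenced brain cannot be told apart in this single library.

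The S-phase members differed widely in level among themselves. Pcna (chr2:132249162-132253314, - strand, GRCm38), the clamp that holds DNA polymerase on its template, was the most abundant S member in microglia of every library, at 119 CPM in naive 1, 104 in naive 2, 388 in metastasis 1, 245 in metastasis 2, 92.4 in Cx3cr1-het and 163 in Cx3cr1-null. Metastasis 1 and metastasis 2 were thus both higher for Pcna than either naive library. Among helicase subunits Mcm3 led, with 37.6 CPM in naive 1, 30.4 in naive 2, 125 in metastasis 1, 29.1 in metastasis 2, 40.8 in Cx3cr1-het and 60.4 in Cx3cr1-null. Metastasis 1, Cx3cr1-null and, by a few UMIs per 1000000, Cx3cr1-het lay above both naive libraries, and metastasis 2 lay below them. Mcm2 and Mcm5, also helicase subunits, had 0 UMIs in microglia of naive 2, which allows up to 6.52 CPM (3 counts). Mcm7 and Rrm2 had 0 in metastasis 2, which allows up to 17.5 CPM. Of the nucleotide enzymes, Rrm1, the large subunit of ribonucleotide reductase, ranged from 11.7 CPM (metastasis 2) to 48.5 (metastasis 1). Its partner Rrm2 ranged from 0 to 38.1 CPM, and the thymidylate synthase Tyms from 5.82 (metastasis 2) to 31.2 (metastasis 1).

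Hmgb2 was the most abundant G2/M member in microglia of all libraries but metastasis 1, and unlike most G2/M members it was not highest there; Cks2, an adaptor of cyclin-dependent kinases, also had its highest level in naive 1, at 15.6 CPM against 13.8 in metastasis 1. The level of Hmgb2 in microglia was 320 CPM in naive 1, 128 in naive 2, 159 in metastasis 1, 274 in metastasis 2, 87.0 in Cx3cr1-het and 107 in Cx3cr1-null. Naive 1 and metastasis 2 were therefore the highest libraries for Hmgb2, and metastasis 1 was not. It supplied 42.8% of all list UMIs in naive 1 and 36.6% in metastasis 2, but 5.91% in metastasis 1. Together Hmgb2, Pcna and Smc4 made up 66.0% of list UMIs in naive 1, 82.8% in metastasis 2 and 25.8% in metastasis 1. Low list counts in microglia of naive 1 and metastasis 2 were thus mostly counts of these 3 genes. Smc4 (chr3:69004738-69034623, + strand), a condensin subunit that compacts mitotic chromosomes, stood at 46.7 CPM in naive 1, 45.6 in naive 2, 211 in metastasis 1, 75.7 in metastasis 2, 61.2 in Cx3cr1-het and 92.6 in Cx3cr1-null.

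The remaining G2/M members were rarer. Top2a (chr11:98992943-99024189, - strand), the topoisomerase that untangles replicated chromosomes, stood at 7.78 CPM in naive 1, 26.1 in naive 2, 180 in metastasis 1, 5.82 in metastasis 2, 24.7 in Cx3cr1-het and 90.6 in Cx3cr1-null. Mki67, whose protein coats mitotic chromosomes, stood at 20.7, 21.7, 90.0, 0, 40.8 and 26.2 CPM in the same order. Cenpf, a kinetochore protein, stood at 14.3, 30.4, 121, 5.82, 34.4 and 20.1 CPM. For these 3 genes metastasis 1 was the highest library, and metastasis 2 held 1 UMI of Top2a, 1 of Cenpf and 0 of Mki67. Ube2c, the ubiquitin-conjugating enzyme of the anaphase-promoting complex, was highest in Cx3cr1-null at 76.5 CPM, against 1.30 in naive 1, 23.9 in naive 2, 31.2 in metastasis 1, 5.82 in metastasis 2 and 6.44 in Cx3cr1-het.

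In microglia of naive 1, 5 members had 0 UMIs and 7 had 1 to 3. In metastasis 2, where 171743 microglial UMIs were counted, 18 members had 0 and 13 had 1 to 3. All 35 were detected in microglia of metastasis 1 and of both Cx3cr1 libraries, and over all kept barcodes each had between 47 (Stmn1, a microtubule regulator) and 1271 UMIs (Smc4). Pcna, Tyms, Ccnb1, Ccnb2 and Stmn1 have annotated pseudogene copies, so their counts could in part be split with or drawn from those copies.

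**Figure D3:**
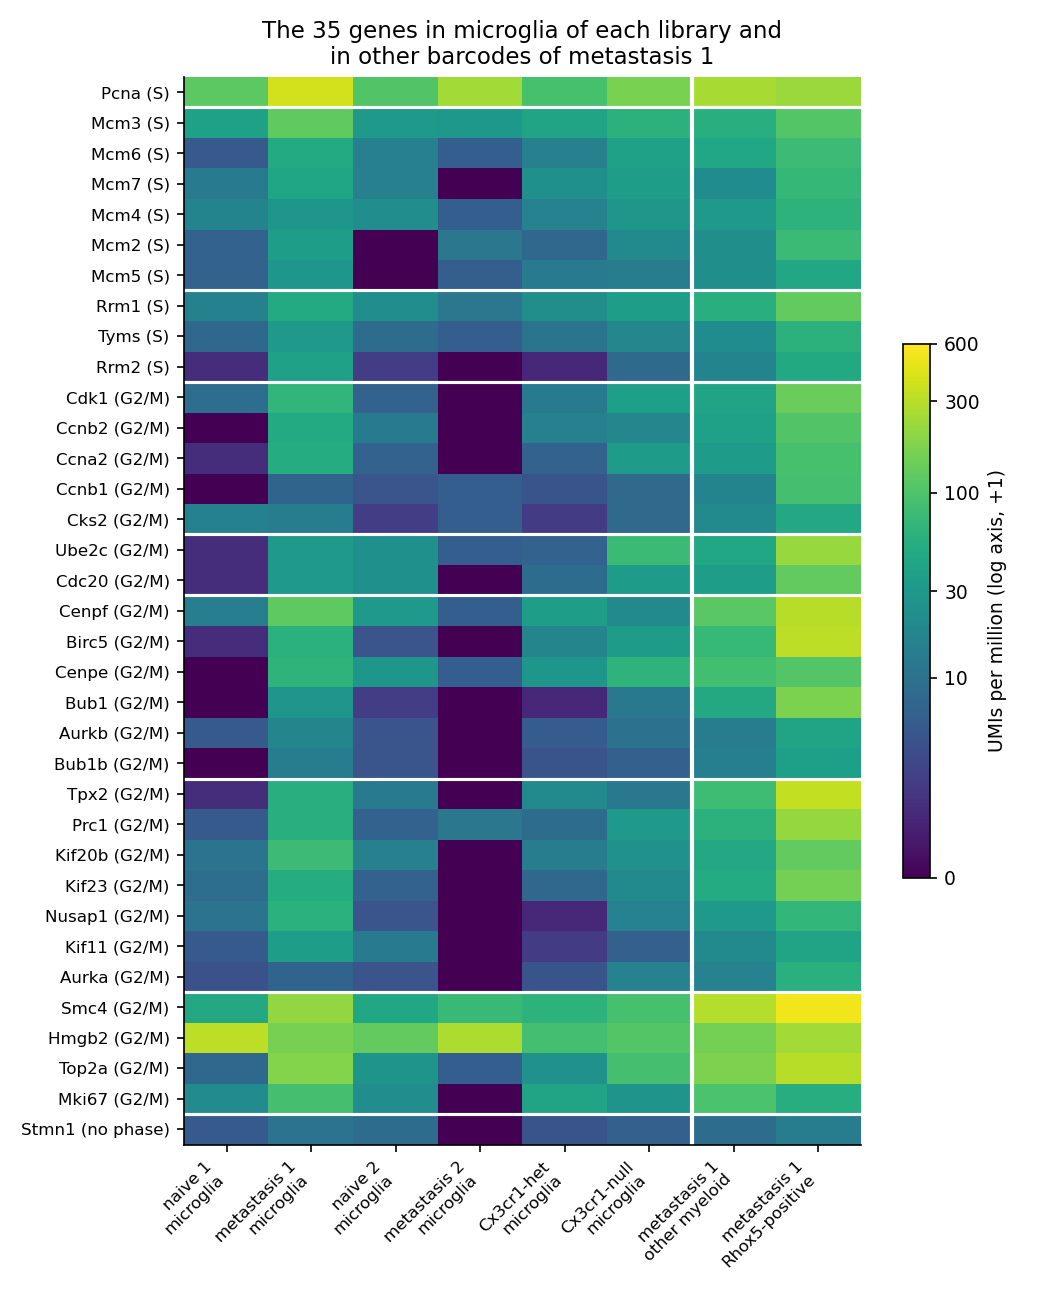
Level of each of the 35 genes (rows, grouped by role, with the phase in brackets) in microglia of the 6 libraries and in other myeloid and Rhox5-positive barcodes of metastasis 1 (columns); colour is CPM on a log axis with 1 added. Hmgb2, Pcna and Smc4 are the bright rows in every library, and most other G2/M genes are at or near 0 in metastasis 2 and brightest in metastasis 1, with exceptions such as Ube2c, which is brightest in Cx3cr1-null.

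Barcodes that carried much of the programme at once were few outside metastasis 1. With 8 or more different members as the limit, a limit chosen after the data were seen, there were 2 such barcodes in naive 1, 6 in naive 2, 0 in metastasis 2 (an upper limit of 4.80% of its 75 microglia), 8 in Cx3cr1-het, 7 in Cx3cr1-null and 113 in metastasis 1. By lineage, 53 of 88 Rhox5-positive barcodes of metastasis 1 qualified (60.2%, 49.2 to 70.5), against 11 of 131 of its microglia (8.40%, 4.27 to 14.5) and 20 of 394 of its other myeloid barcodes (5.08%, 3.13 to 7.73). Rhox5-positive barcodes of metastasis 1 were also deeper, with a median of 7319 UMIs against 1712 in microglia and 1846 in other myeloid barcodes. The share with 8 or more members was not compared at equal depth. After thinning to 800 UMIs, 55.7% of Rhox5-positive barcodes held 3 or more list UMIs, against 27.5% of microglia and 29.2% of other myeloid barcodes. Among microglia elsewhere, the share with 8 or more members was 0.510% in naive 1 (0.0618 to 1.83) and 2.34% in naive 2 (0.486 to 6.70). It was 2.00% in Cx3cr1-het (0.548 to 5.04) and 3.05% in Cx3cr1-null (0.838 to 7.63). The intervals of these 4 microglial shares overlapped. The barcodes were deep, with a median of 12730 UMIs for the 13 microglial ones outside metastasis 1, and 3 of the 23 outside metastasis 1 were among the top 5% of Scrublet doublet scores of their library.

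These few barcodes held much of the signal. They carried 9.94% of list UMIs in naive 1, 46.4% in naive 2, 32.3% in Cx3cr1-het, 65.2% in Cx3cr1-null and 53.0% in metastasis 1. The richest microglial barcode, in Cx3cr1-null, held 250 list UMIs of 28 members among 34456 UMIs, with Ube2c (36 UMIs), Top2a (29) and Cenpe (22), a kinetochore motor, in front. Its G2/M members had 241 UMIs and its S members 9. It kept a microglial identity by its markers, with 66.5 microglial and 13.6 other-myeloid marker UMIs per 10000. An S-phase counterpart in the same library held 53 S and 19 G2/M UMIs, led by Pcna with 23, and its doublet score was in the top 5%. In naive 2 the richest was an other myeloid barcode with 180 list UMIs of 31 members; a barcode 1 base or deletion away held another 39, so the pair may be 1 cell with 219. Cx3cr1-het had microglial barcodes with 82 and 59 list UMIs, led by Cenpe and Cenpf.

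G2/M members outweighed S members in most of these barcodes. G2/M UMIs were more numerous in 101 of 113 barcodes of metastasis 1 and in 14 of 23 elsewhere, and S UMIs in 12 and 8, with 1 tie. The list has 24 G2/M and 10 S genes, so an excess of G2/M UMIs is built into it, and the S share is better compared between classes. In metastasis 1, S members gave 18.7% (17.5 to 20.01) of S plus G2/M UMIs in Rhox5-positive barcodes, 25.7% (23.8 to 27.6) in other myeloid and 34.6% (31.0 to 38.3) in microglia. The 3 intervals did not overlap. Microglia of the other libraries ranged from 31.9% (naive 1) to 44.7% (metastasis 2), and those of Cx3cr1-null stood at 34.5% (30.7 to 38.4).

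**Figure D4:**
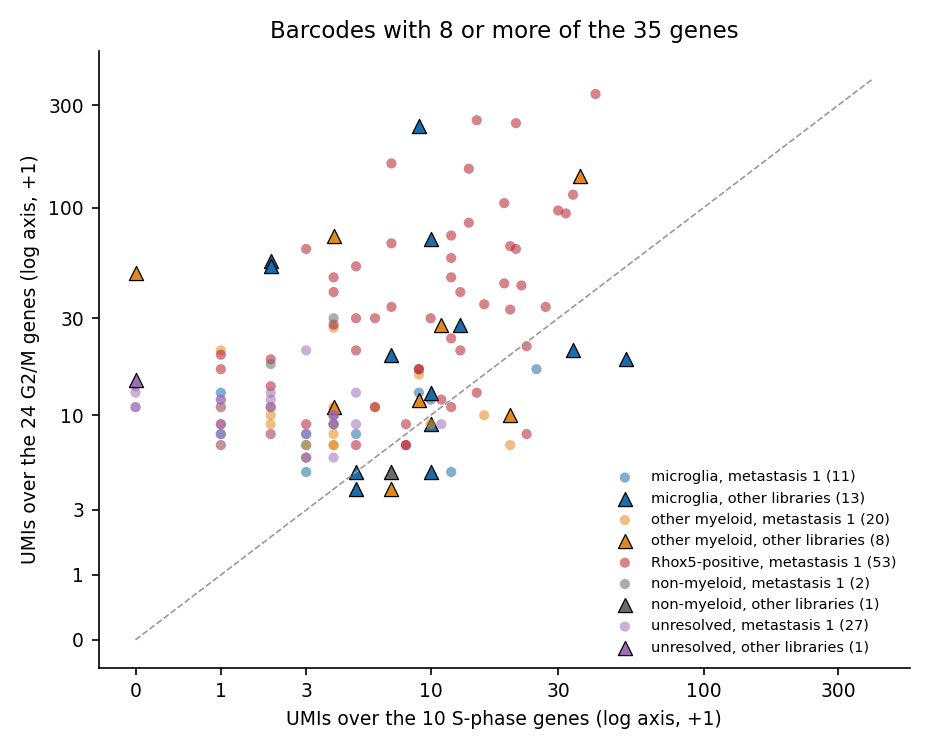
UMIs over the 24 G2/M genes (vertical) against UMIs over the 10 S-phase genes (horizontal), both log axes with 1 added, for the 136 barcodes with 8 or more of the 35 genes; circles are metastasis 1, triangles the other libraries, colour is lineage and the dashed line marks equal counts. Most points lie above the line, and the highest triangle is the Cx3cr1-null microglial barcode with 241 G2/M and 9 S UMIs.

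Genes outside the list were counted next. A second list of 91 cell cycle genes (36 S, 38 G2/M and 17 of G1) was counted in the same barcodes. In the 22 barcodes outside metastasis 1 with unequal counts in both lists, the list and the other genes named the same larger phase in 18 (6 S and 12 G2/M). Of the 8 where the list named S, the other genes did so in 6. In metastasis 1 most barcodes were G2/M in both lists, 39 of 53 Rhox5-positive and 35 of 53 others. In a further 8 and 13 the list named G2/M and the other genes named S. Of the few where the list named S, the other genes did so in 3 of 6 and in 2 of 5, so the larger phase there could hardly be compared. In microglia outside metastasis 1 the other G2/M genes stood at 2583 CPM in the 13 barcodes with 8 or more members, 596 in the 225 with 3 or more list UMIs but fewer members, and 546 in the 688 with under 3. The other S genes stood at 1173, 499 and 432 CPM. The Cx3cr1-null barcode described above supplied 246 of the 526 other G2/M UMIs of the 13 barcodes; without it the level of the other 12 was 1655 CPM, and without that library 1715, still above both further classes. So the wider programme stood higher in the few barcodes rich in members, while barcodes with 3 or more UMIs but fewer members lay near those with under 3. In that middle class Hmgb2, Pcna and Smc4 made up 56.8% of list UMIs. In microglia of metastasis 1 the other G2/M genes differed less between the 3 classes, at 1926, 1595 and 1461 CPM.

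The comparison of metastasis with naive microglia asked whether the members changed when metastases were present. No gene passed edgeR's quasi-likelihood test with Benjamini-Hochberg adjustment (0 of 5844 genes, 0%; 170 genes, 2.91%, had an unadjusted p under 0.05, and DESeq2 called 0). Only 6 members passed the filter on low counts, and 0 of these were called. Their median log2 fold change was 1.45, against 0.01 over all genes tested. Pcna differed by 1.39 ± 0.45 (log2 fold change ± SE, edgeR adjusted p = 0.997) and Smc4 by 1.55 ± 0.53 (edgeR adjusted p = 0.997). For both genes the metastasis libraries lay above the naive ones in CPM. For Smc4 the place of metastasis 2 rested on 13 microglial UMIs in 3 barcodes, 10 of them in 1 barcode. Cenpe, Cenpf and Mcm3 had log2 fold changes of 1.51, 1.55 and 1.11 with standard errors of 1.32, 0.91 and 0.63. Hmgb2 was at -0.19 ± 0.59, and its metastasis and naive libraries interleaved.

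Within each sequencer the picture was split. Between the naive libraries the list differed by -0.12 (-0.33 to 0.08) in log2 level, naive 2 over naive 1. Of 8 members measured there, 1 was at least 2-fold higher, among all genes 11.5%, and 1, Hmgb2, at least 2-fold lower, among all genes 4.29%. On the HiSeq 2500, microglia of metastasis 1 exceeded those of naive 1 by 1.70 (1.54 to 1.86) in the log2 level of the whole list. Of 15 members with at least 20 UMIs over both libraries, 13 were at least 2-fold higher, among all genes 18.9%, and their median was 2.18 against 0.21 over all genes. Top2a had 6 UMIs in naive 1 and 52 in metastasis 1, a log2 ratio of 4.53 (3.31 to 6.04), while Hmgb2 was lower, at -1.01 (-1.49 to -0.55), among all genes 12.2% at least 2-fold lower. On the NextSeq 500, metastasis 2 exceeded naive 2 by 0.10 (-0.21 to 0.41), and only 3 members could be measured: Pcna at 1.23 (0.60 to 1.86), Hmgb2 at 1.09 (0.51 to 1.67) and Smc4 at 0.73 (-0.39 to 1.80). Of these, 2 were at least 2-fold higher, among all genes 6.96%, and 0 lower, among all genes 13.9%. The metastasis libraries also differed from each other, by -1.72 (-2.01 to -1.44), metastasis 2 over metastasis 1, where 6 of 8 members were at least 2-fold lower, among all genes 20.7%, and 0 higher, among all genes 13.6%. These intervals compare 2 libraries, not the conditions. Without metastasis 2, edgeR called 96 of 7498 genes and 3 of 26 members, with the single metastasis library assumed to vary as the naive pair did: Top2a at 3.35 (adjusted p = 0.00927), Smc4 at 2.00 (adjusted p = 0.0435) and Cenpf at 2.33 (adjusted p = 0.0480). Without metastasis 1, on the same assumption, 1 of 7305 genes and 0 of 9 members were called, and the median of the 9 was -0.69. Smc4 was then at 0.65. Cenpe moved most, from 0.32 without naive 1 to 6.73 without naive 2, where the remaining naive library held 0 UMIs and the fitted value is no bound.

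Summed over all kept barcodes, where the mix of cells enters, 23 of 24 members tested were higher in metastasis, with a median log2 fold change of 1.62 against 0.02 over all genes. None was called by edgeR (0 of 8248 genes, 0%; 139 genes, 1.69%, and 1 member, Prc1, had an unadjusted p under 0.05; DESeq2 called 1 gene and 0 members). Tpx2, a spindle assembly factor, had the largest difference at 3.10 ± 1.63. Its UMIs numbered 1 in naive 1 (1.19 CPM), 15 in naive 2 (18.96), 428 in metastasis 1 (161.6) and 0 in metastasis 2. That 0 allows up to 16.3 CPM (3 counts). Metastasis 1 was thus the highest library, and metastasis 2 could not be ranked against naive 1. Without metastasis 1 the median of 22 members was -1.74 and 4 were higher. That left metastasis 2 as the only metastasis library, where 18 of the 35 members had 0 UMIs over all kept barcodes and 13 had 1 to 3. In naive 2, 1 barcode held 26.2% of list UMIs.

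Between Cx3cr1-null and Cx3cr1-het, microglia differed by 0.88 (0.71 to 1.04) in the log2 level of the list, at 1220 against 665 CPM. Of 21 members with at least 20 UMIs over both libraries, 8 were at least 2-fold higher in Cx3cr1-null, among all genes 3.56%, and 0 were at least 2-fold lower, among all genes 5.88%. Ube2c led with 38 against 6 UMIs, a log2 ratio of 3.57 (2.32 to 5.10). Cyclin A2 (Ccna2) had 16 against 6 UMIs, at 2.32 (0.89 to 3.96). Cdc20, the activator of the anaphase-promoting complex, had 16 against 8, at 1.91 (0.60 to 3.34). Top2a had 45 against 23, at 1.87 (1.12 to 2.67). In the opposite direction, Mki67 was at -0.64 (-1.67 to 0.30), Tpx2 at -0.76 (-2.37 to 0.62) and Cenpf at -0.77 (-1.96 to 0.29), with intervals that include 0.

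The single rich barcode of Cx3cr1-null decided most of these values. Without the barcode with most list UMIs in each library, the list ratio was 0.38 (0.18 to 0.58), and 1 of the 8 members, Mcm6, stayed at least 2-fold higher at 1.56 (0.43 to 2.75). In the opposite direction 3 of the 21 members were then at least 2-fold lower: Mki67 at -1.03 (-2.61 to 0.30), Tpx2 at -1.25 (-3.69 to 0.59) and Cenpf at -1.93 (-3.90 to -0.43), the last with an interval that excludes 0. Ube2c was then at -0.61 (-3.95 to 1.87), since 36 of its 38 UMIs came from that barcode. Cdc20 was likewise at -0.61 (-3.95 to 1.87), with 14 of its 16 UMIs from that barcode. Pcna hardly moved, from 0.82 (0.36 to 1.27) to 0.87 (0.40 to 1.33), with 81 and 86 UMIs in Cx3cr1-null and Cx3cr1-het. Without all barcodes of 8 or more members the list ratio was -0.12 (-0.37 to 0.12). When each barcode was thinned to 800 UMIs, so that all barcodes weighed the same, the mean was 0.408 list UMIs in Cx3cr1-null and 0.615 in Cx3cr1-het, a log2 ratio of -0.59 (-1.09 to -0.11). The direction of the list between the genotypes therefore depended on how barcodes were weighted.

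**Figure D5:**
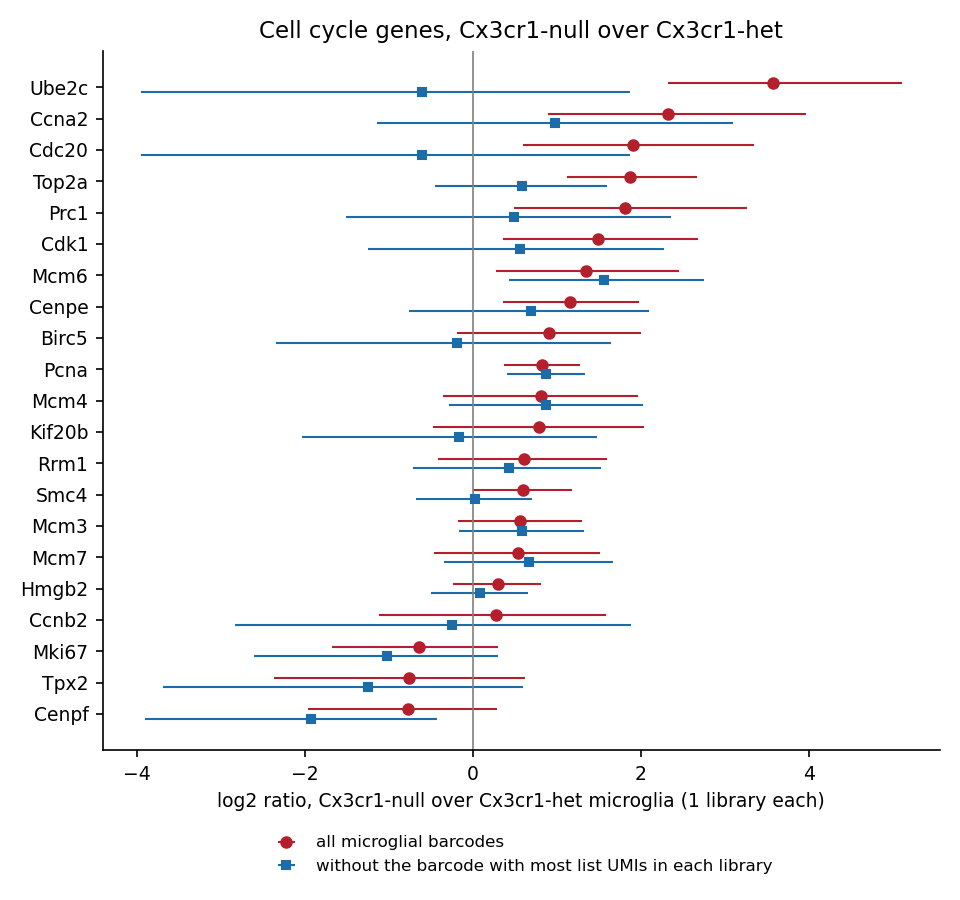
Log2 ratio of Cx3cr1-null over Cx3cr1-het microglia (horizontal axis) for the 21 members with at least 20 UMIs over both libraries (rows), with exact 95% intervals of the counts; red circles use all microglial barcodes and blue squares leave out the barcode with most list UMIs in each library. Ube2c moves from 3.57 to -0.61, while Pcna stays near 0.8.

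Microglia with 3 or more list UMIs were set against the other microglia of the same library in all 6 libraries, with library as a block. The members chose these barcodes and give no test. In the summed counts, Cdc20 (4.42), Ccna2 (3.40) and Cenpf (3.06) had the largest log2 differences and Mcm3 (1.04) the smallest of the 18 members that passed the filter. Over all genes edgeR called 34 of 5965 (0.57%), 30 higher (0.503%) and 4 lower (0.0671%), and 378 (6.34%) had an unadjusted p under 0.05. Of the 34, 9 were members, whose calls follow from the choice of barcodes. Of 31 other cell cycle genes tested, 1 was called, higher: Smc2, the condensin partner of Smc4, at 1.37 ± 0.34 (edgeR adjusted p = 0.0222). Their median was 0.33 against 0.00 over all genes. Tubb4b, a tubulin, was just short at 1.18 ± 0.32 (edgeR adjusted p = 0.0520). Smc2 was no longer called without naive 2 (1.08, adjusted p = 0.329), without Cx3cr1-null (1.04, adjusted p = 0.622) or by DESeq2 (1.34, adjusted p = 0.904). Among the G1 regulators, the cyclin-dependent kinase inhibitor Cdkn1a was at 0.37 ± 0.16 (edgeR adjusted p = 0.629) and cyclin D1 (Ccnd1) at 0.27 ± 0.16 (edgeR adjusted p = 0.862). With both classes thinned to 800 UMIs and 2 or more list UMIs as the limit, 7 genes of 1331 were called, 6 of them members. These were all 6 members tested, and members again chose the classes, so their calls are no result. Only 3 other cell cycle genes, without Smc2, could then be tested, with a median of -0.23 and 0 called.

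Other myeloid barcodes were compared with microglia in 5 libraries, with library as a block; metastasis 2 held too few other myeloid barcodes to enter. Many genes separated these lineages: edgeR called 751 of 7235 higher (10.4%) and 590 lower (8.15%), 18.5% in all, and 29.8% had an unadjusted p under 0.05. Of 29 members tested, 2 were called, both higher in other myeloid barcodes, and the median of the members was 0.31 against -0.05 over all genes. A share of 2 in 29 is below the background of higher calls. Smc4 differed by 0.99 ± 0.23 (edgeR adjusted p = 0.00228) and the survivin gene Birc5, which serves the chromosomal passenger complex, by 1.43 ± 0.42 (edgeR adjusted p = 0.0137). Neither was called without naive 2 (0.70 and 0.83, edgeR adjusted p = 0.0523 and 0.204). Without metastasis 1 both were still called, at 1.23 and 2.025, and the median of the 18 members tested was 0.61. Birc5 was also not called without Cx3cr1-het (1.35, adjusted p = 0.0921) or after the top 5% of doublet scores were removed (1.15, adjusted p = 0.0974). Pcna (0.08 ± 0.23), Top2a (0.17 ± 0.33), Hmgb2 (0.15 ± 0.20) and Mcm3 (-0.49 ± 0.33) did not pass. Of 47 other cell cycle genes 3 were called, all higher: Cdkn1a at 0.91 ± 0.19 (edgeR adjusted p = 6.18e-04), cyclin D2 (Ccnd2) at 0.94 ± 0.27 (adjusted p = 0.0121) and the thymidine kinase Tk1 at 1.57 ± 0.55 (adjusted p = 0.0411). Ccnd2 was not called without naive 2 (0.76, adjusted p = 0.0817). Tk1 was not called without Cx3cr1-het (adjusted p = 0.0551), although its difference was larger at 1.86, nor by DESeq2 (1.43, adjusted p = 0.147).

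Within metastasis 1 the lineages could be set side by side in a single library, without a test. Rhox5-positive barcodes exceeded microglia by 1.04 (0.92 to 1.16) in the log2 level of the list, and 19 of 34 members measured were at least 2-fold higher, among all genes 26.3%, and 0 were lower, among all genes 18.0%. The median of the members was 1.13 against 0.26 over all genes. The largest differences were in late mitotic genes: Ccnb1 (cyclin B1) had 70 against 2 UMIs, at 3.70 (1.79 to 6.77). The mitotic kinase Aurka stood at 3.03 (1.09 to 6.12, 44 against 2 UMIs), Ube2c at 2.85 (1.89 to 4.004), the checkpoint kinase Bub1 at 2.60 (1.58 to 3.84), Tpx2 at 2.58 (1.85 to 3.41) and Birc5 at 2.41 (1.70 to 3.22). The 10 S members varied. Rrm1 at 1.39 (0.58 to 2.31), Mcm2 at 1.16 (0.18 to 2.29) and Mcm4 at 1.16 (0.06 to 2.45) were at least 2-fold higher. Mcm5, Mcm6, Mcm7, Tyms and Rrm2 lay between 0.32 and 0.95, with intervals that include 0. Mcm3 was at -0.23 (-0.81 to 0.38), and Pcna was lower in Rhox5-positive barcodes at -0.76 (-1.11 to -0.41). Mki67 was also lower, at -0.77 (-1.52 to -0.01), with 52.7 CPM in Rhox5-positive barcodes against 90.0 in microglia, 96.8 in other myeloid, 145 in unresolved and 285 in non-myeloid barcodes. Against other myeloid barcodes of the same library, 24 of 34 members were at least 2-fold higher in Rhox5-positive ones, among all genes 19.2%, and 0 were lower, among all genes 18.3%.

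The other genes of the cycle were measured alongside. In Rhox5-positive barcodes 44 of 73 of them were at least 2-fold higher than in microglia of metastasis 1, among all genes 26.3%, with a median of 1.44 against 0.26. The 2 that were at least 2-fold lower, among all genes 18.0%, were Cdkn1a at -1.07 (-1.33 to -0.80) and the cyclin D3 gene Ccnd3 at -1.20 (-2.20 to -0.17), the latter named after its value was seen. By role, those with most UMIs in S phase were Nasp, a histone chaperone (412 CPM in Rhox5-positive barcodes, 253 in microglia of metastasis 1 and 45.6 to 87.3 in microglia of the other libraries), Usp1 (152, 62.3 and 11.7 to 50.3) and Casp8ap2 (61.7, 79.7 and 42.3 to 70.9). In G2/M they were Anp32e, another histone chaperone (500, 270 and 109 to 140), Cbx5, the heterochromatin protein HP1 alpha (266, 100 and 29.1 to 63.4) and Tubb4b (308, 72.7 and 29.0 to 68.4). Among G1 regulators they were Cdkn1a (346, 724 and 176 to 319), Ccnd1 (517, 246 and 189 to 326) and Ccnd2 (448, 177 and 0 to 38.2). Cdkn1a and Casp8ap2 were the 2 of these 9 genes that stood lower in Rhox5-positive barcodes than in microglia of the same library.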

How the data were processed

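Groups and numbers of brains were taken from the sample labels. The deposited values are UMI counts, whole numbers with no scaling, in 1 table of 1000 barcodes for every library. STAR, Seurat and mm10 are named in the submitters' processing notes, without versions or settings. Members and lists were chosen with earlier results of these data known. Barcodes with 400 or more genes and under 10% mitochondrial UMIs were kept; no doublets were removed, as the automatic Scrublet limit (scanpy 1.11.5) marked 2 to 8 barcodes in 5 libraries and 25 of 81 in metastasis 2. Lineage limits (75 pan-myeloid, 40 class markers per 10000 UMIs) were set after the marker distributions had been seen. Values are counts or CPM, UMIs per 1000000 UMIs of the same barcodes.

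Counts summed per library were tested with edgeR 4.0.16 (R 4.3.3; quasi-likelihood, TMM, filterByExpr, Benjamini-Hochberg adjusted p under 0.05), tested on simulated data first, with DESeq2 1.42.0 as an alternative. Each library is a brain or a pool of brains, and the p-values reflect no more than how these few libraries vary. Libraries of the same replicate number share a sequencer per the labels, and the correlation of their deviations from the group means was -0.14 over 5844 genes in microglia, so the block was an alternative. Depth was 183728 (metastasis 2) to 2648944 (metastasis 1) kept UMIs, and a count of 0 was read as up to 3 counts. Every member is named or counted; other cell cycle genes are named where they passed a test or were the 3 with most UMIs of their role. Tubb4b's adjusted p, Prc1, and the genes of the closing section outside these lists were singled out after their values were seen. Promoters are from RefSeq (GRCm38.p6) and gene positions from GENCODE on GRCm38, the assembly also called mm10.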

Additional observations from a re-analysis of the deposited data

Results flagged for a closer look

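Of the 749 barcodes of Cx3cr1-het that the filters left out, 1 held 8 or more different members (0.134%), against at most 0.122% in the naive libraries (1 of 819 in naive 2); Cx3cr1-null likewise had 1, of 840, and the difference from naive rests on that single barcode. Left-out barcodes of the NextSeq 500 libraries were not empty of members: their summed level was 1116 CPM in naive 2, 503 in metastasis 2, 888 in Cx3cr1-het and 841 in Cx3cr1-null.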

How the results depend on the processing

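Shares of barcodes with 3 or more list UMIs moved with most settings, in the order naive 1, metastasis 1, naive 2, metastasis 2, Cx3cr1-het and Cx3cr1-null. With 2 or more UMIs they were 30.2, 89.2, 50.3, within its interval, 57.8 and 45%. With 5 or more they were 7.62, 49.6, 12.2, 12.3, 19.5 and 13.8%, and thinned to 800 UMIs 4.44, 36.6, 4.07, 3.51, 4.12 and 3.90%. Without Hmgb2 and Stmn1 naive 1 had 7.62%, metastasis 1 74.7%, metastasis 2 14.8% and Cx3cr1-het 33.5%. With mitochondrial shares up to 25% naive 1 had 15.5%, naive 2 17.3%, Cx3cr1-het 25.5% and Cx3cr1-null 16.4%. The other 17 values, and the 6 microglial shares with lineage from clusters, stayed within the counting interval; metastasis 1 was highest in every setting.

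The log2 list ratio of Cx3cr1-null over Cx3cr1-het microglia, 0.88, was -0.59 thinned, 0.38 without the richest barcode of each library and 0.37 with mitochondrial shares up to 25%; the last 2 settings were chosen after seeing the data. Genes called by edgeR between metastasis and naive microglia numbered 48 without a low-count filter, with 1 member (Top2a), and 0 to 96 leaving out a library, with 0 to 3 members; the replicate block gave 0 genes and 0 members, and the crossed pairing 0 and 0, so it changed no call. Over all kept barcodes the replicate block gave 0 genes, DESeq2 1, no filter 115, and leaving out a library 0 to 45. For microglia with 3 or more list UMIs, 34 genes became 7 with DESeq2, 7 thinned and 18 to 51 leaving out a library. Other myeloid against microglia gave 769 to 1382 genes leaving out a library. Leaving out a library, Cenpe ranged from 0.32 (without naive 1) to 6.73 (without naive 2, against 0 UMIs), Smc4 from 0.65 (without metastasis 1) to 2.00, Cenpf from -1.87 (without metastasis 1) to 2.33, Mcm3 from -0.30 (without metastasis 1) to 1.66, and Hmgb2 from -0.77 to 0.75 (without naive 1; 0.18 without metastasis 1). The cause of these moves was not tested. Depth limits rare members: in metastasis 2 microglia 3 counts are 17.5 CPM.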

Other observations

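Besides 9 members and Smc2, edgeR called 24 genes outside the cell cycle between microglia with 3 or more list UMIs and the other microglia of their library, over 6 libraries. Those named here were chosen after their values were seen, and they stand for no tested group of genes. Ifi27l2a was higher by 1.38 ± 0.18 (log2 difference ± SE, edgeR adjusted p = 3.49e-08), the cytokine Il1b by 1.13 ± 0.17 (adjusted p = 1.02e-06) and Ifitm3 by 1.04 ± 0.17 (adjusted p = 4.89e-06). Ttr, the transthyretin gene, was lower, at -1.63 ± 0.22 (adjusted p = 3.60e-08).

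Most of these calls depended on the method and on depth. DESeq2 called 2 of the 24, Ifitm3 (adjusted p = 0.0297) and mt-Rnr2 (adjusted p = 0.0474), although all 24 kept their sign. With barcodes thinned to 800 UMIs and 2 or more list UMIs as the limit, 15 of the 24 could be tested, 9 kept their sign and 1 was called, the chemokine gene Cxcl10 (1.12, edgeR adjusted p = 0.0327). Ifi27l2a was then at 0.75, Ttr at -0.60, Ifitm3 at 0.29 and Il1b at -0.03. The part of free RNA in these differences was not tested.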
